A study of Mus musculus with 94 samples.

Results

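The endothelial identity genes are 34 genes that mark the cells lining blood vessels, and they were read here as vessel transcripts of the mouse 4T1 mammary tumor. They were chosen by gene symbol, each symbol matched 1 of the 49080 rows of the gene table, and all 34 passed the filter on low counts in every fit. Of these, 14 sit at junctions or on the cell surface (Pecam1, Cdh5, Tie1, Emcn, Eng, Esam, Cldn5, Robo4, Ecscr, Clec14a, Icam2, Ptprb, Myct1 and S1pr1), 5 act in the vessel matrix or on the inner side of the cell (Egfl7, Mmrn2, Rasip1, Ushbp1 and Nostrin), and 5 are transcription factors (Erg, Tal1, Sox7, Sox17 and Sox18). Another 4 mark capillaries and fenestrae (Plvap, Gpihbp1, Car4 and Aqp1), 3 mark venous or activated endothelium (Vwf, Sele and Selp), and 3 belong to angiogenic signaling (Apln, Aplnr and Esm1). The data are total RNA-Seq of 94 bulk tumors. Each mouse was a female BALB/c that received 4T1 cells, a triple-negative mammary carcinoma line of the same strain, in the right hind limb at 8 weeks of age. Once tumors had formed, mice were left untreated (control), had the tumor-bearing leg irradiated once with x-rays at 6 Gy (6 Gy), were given 30 mg/L indomethacin, an inhibitor of the COX1 and COX2 cyclooxygenases, in drinking water throughout (INDO), or received both (6 Gy + INDO). Tumors were harvested on days 1, 3, 7, 15 and 23, which the paper counts from irradiation (IR). In that order there were 4, 5, 5, 3 and 3 controls, 5 tumors per day for 6 Gy and for INDO, and 5, 4, 5, 5 and 5 for 6 Gy + INDO.

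All groups share 1 implanted line and 1 site under the skin of the leg, next to muscle, so that a piece of tumor may hold host skin, fat and muscle, and days are harvests of different tumors. Tumors carry separate numbers within their group and nothing else in the labels sets them apart, so p-values measure the spread between these tumors. The authors housed several mice to a cage, and which tumors shared a cage is not given. The part of the cage in a difference between groups cannot be told apart. Total counts per tumor ranged from 21.0 to 109 M, with medians of 73.4 M in control, 66.6 M in 6 Gy, 41.0 M in INDO and 37.5 M in 6 Gy + INDO tumors. In all, 11 tumors held over 300 CPM (read counts scaled to the library size) on olfactory and vomeronasal receptor genes (326 to 1594, against 40.6 to 145 in the other 83), and 8 of the 11 were 6 Gy + INDO tumors of days 3, 7 and 23. Small structural RNAs took a median of 7.47% of counts in control, 9.90% in 6 Gy, 11.2% in INDO and 11.2% in 6 Gy + INDO tumors.

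Blood vessels are lined by endothelial cells that hold together through VE-cadherin (Cdh5), PECAM-1 and claudin-5, and that keep their identity through ETS factors such as ERG and through SOX factors of the F group. Signals of the TIE and apelin receptors shape vessel growth, fenestrated capillaries carry PLVAP diaphragms, and endothelium that is activated by cytokines shows E- and P-selectin to passing leukocytes. In tumors these genes are used to follow how much vessel a piece of tissue holds. In bulk RNA, fewer endothelial cells and less of these transcripts per cell cannot be told apart.

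Promoter sequence was available for 19 of the 34 members (24 promoters, RefSeq, build GRCm38.p6, from 250 bases before to 50 after the start). The ETS core AGGAAG, searched on both strands, was in 15 of the 24 member promoters and in 14 of the 19 genes, against 35.4% of 32851 promoters in all. The other ETS form CGGAAG was in 3 of 24 (16.9% of all promoters), the SOX core ACAAAG in 4 (18.7%), the NF-kappaB form GGNNTTTCC in 3 (5.82%) and TATAAA in 4 (13.6%). The stretches before the start of Tie1 and Robo4, both lower in all 9 comparisons of days 1 to 7, and of the selectins Sele and Selp are shown 5′ to 3′ on each gene's own strand, with capitals for letters that match any of the 5 motifs on either strand.
Tie1 (chr4:118489850-118490099, minus strand): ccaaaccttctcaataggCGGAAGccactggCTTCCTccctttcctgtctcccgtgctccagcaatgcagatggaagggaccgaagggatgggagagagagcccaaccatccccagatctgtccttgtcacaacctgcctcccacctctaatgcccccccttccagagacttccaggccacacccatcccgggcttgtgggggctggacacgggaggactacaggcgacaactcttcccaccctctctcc
Robo4 (chr9:37401722-37401971, plus strand): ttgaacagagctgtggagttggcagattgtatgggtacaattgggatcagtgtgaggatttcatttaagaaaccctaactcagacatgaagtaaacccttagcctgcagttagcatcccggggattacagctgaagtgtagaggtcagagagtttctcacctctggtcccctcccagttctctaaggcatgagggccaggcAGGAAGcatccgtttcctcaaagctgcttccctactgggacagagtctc
Sele (chr1:164047984-164048233, plus strand): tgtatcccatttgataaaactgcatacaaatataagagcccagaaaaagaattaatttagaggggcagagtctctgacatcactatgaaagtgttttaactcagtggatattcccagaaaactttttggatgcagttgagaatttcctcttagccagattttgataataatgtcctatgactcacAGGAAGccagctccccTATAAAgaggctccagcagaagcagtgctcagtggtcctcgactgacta
Selp (chr1:164115014-164115263, plus strand): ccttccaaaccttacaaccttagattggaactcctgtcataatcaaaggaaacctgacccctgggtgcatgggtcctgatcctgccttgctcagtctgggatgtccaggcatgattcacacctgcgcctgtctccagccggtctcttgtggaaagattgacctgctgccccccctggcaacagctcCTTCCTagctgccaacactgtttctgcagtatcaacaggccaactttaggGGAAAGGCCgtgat
These matches are descriptions of letters and not binding sites. Sele is the 1 of the 4 with a TATAAA match, 49 bases before its start, and Selp the 1 with a GGNNTTTCC match, 14 bases before its start on the opposite strand.

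In the 14 controls of days 1 to 7 the members spanned a wide range of levels. Per kilobase of exon, Aqp1, a water channel of capillaries and red cells, was highest, with a median of 28.8 CPM (scaled by edgeR's TMM factors) per kilobase and a range of 20.2 to 38.3. Plvap (21.0), Eng (20.8), an accessory receptor of TGF-beta and BMP ligands, Apln (19.2), the apelin ligand, Cdh5 (15.1) and Pecam1 (14.9) followed as medians on the same scale, and their ranges overlapped those of their neighbors. The transcription factors were low, from 3.08 CPM per kilobase for Sox18 and 1.54 for Erg down to 1.20 for Sox7, 0.689 for Tal1 and 0.387 for Sox17, the lowest of the 34.

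On days 1, 3 and 7 most of the endothelial genes were lower after each treatment, and 0 were higher with edgeR's test. Of the 34 members, 24 were lower after 6 Gy on day 1, 23 on day 3 and 29 on day 7 (edgeR's quasi-likelihood test, adjusted p under 0.05 over all genes), beside 9.41%, 4.11% and 10.3% of all genes tested that were lower in those comparisons. After INDO alone 24, 23 and 24 members were lower, beside 8.89%, 3.95% and 11.7% of all genes. After the combination 25, 25 and 30 were lower, beside 13.3%, 9.44% and 21.2%. The day 1 count for INDO was 14 without the first control. The 1 member with a higher call under another tool on these days was Sox7, after INDO on day 1 with DESeq2. The median log2 fold change of the 34 on day 1 was -1.03 after 6 Gy, -1.0 after INDO and -1.02 after both, and on day 7 it was -1.59, -1.13 and -1.80, while the median of all genes tested on day 7 lay between 0.0173 and 0.0304. There were 13 members lower in all 9 comparisons of these days (Aplnr, Aqp1, Cdh5, Clec14a, Egfl7, Esam, Plvap, Ptprb, Rasip1, Robo4, Sox18, Tal1 and Tie1), and Sox7 was lower in 0 of 9. Comparisons of the same day share their controls, and the share of all genes lower in all 9 was not computed.

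The level of 10 pan-endothelial genes (Pecam1, Cdh5, Tie1, Esam, Egfl7, Robo4, Mmrn2, Ecscr, Clec14a and Erg), taken as the geometric mean of their CPM in each tumor, shows the separation tumor by tumor. The controls stood at 22.6, 17.8, 18.8 and 13.9 CPM on day 1, at 17.98, 16.1, 17.96, 23.8 and 18.6 on day 3, and at 26.8, 35.1, 22.1, 18.2 and 22.3 on day 7. Treated groups of these days averaged between 6.25 ± 1.76 (SD, n = 5; 6 Gy + INDO, day 7) and 10.1 ± 2.00 (n = 5; INDO, day 7). Every treated tumor lay below every control of its day on each of the 3 days. Over all 5 days, 72 of the 74 treated tumors were below the lowest control of days 1 to 7. The untreated controls of day 15 were below that level too, at 7.93 to 9.75 CPM, and those of day 23 ranged from 12.35 to 19.1.

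**Figure D1:**
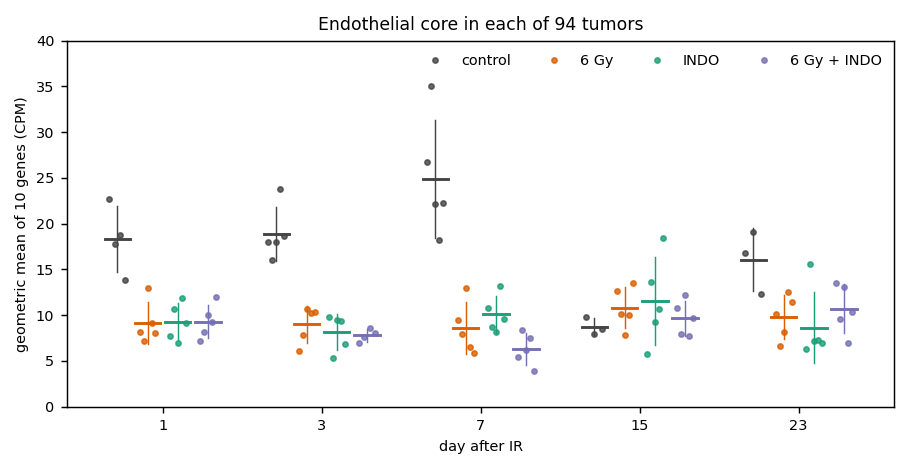
Geometric mean CPM of 10 pan-endothelial genes (vertical axis, CPM) in each tumor by day and treatment (points are tumors, horizontal bars are group means, vertical lines are SD). Controls of days 1 to 7 sit between 13.9 and 35.1 CPM and drop to between 7.93 and 9.75 on day 15, whereas treated group means stay between 6.25 and 11.5 on all 5 days.

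Fat markers were mostly lower in the treated tumors of days 1 to 7, while skeletal muscle and skin markers overlapped widely between treated tumors and controls. A fit that takes these host tissue markers into account calls fewer members within a day. The summed level of 6 fat markers (Adipoq, Plin1, Cidec, Lipe, Lep and Cfd) ranged from 14.8 to 77.8 CPM (median 23.9) in the 14 controls of days 1 to 7 and from 8.46 to 21.4 (13.4) in the 44 treated tumors of those days, and Adipoq was at 0 in 13 of 94 tumors and Plin1 in 18. On the mean over days, 6, 5 and 6 of the 6 fat genes were lower after 6 Gy, INDO and both. Skeletal muscle markers ranged from 6.33 to 5448 CPM (median 1385) in those controls and from 7.05 to 5701 (321) in those treated tumors, and skin markers from 80.3 to 1292 (234) and from 45.7 to 2774 (196). With per-tumor scores of the 3 lists as covariates, an alternative added after these values were seen, members lower on days 1, 3 and 7 numbered 0, 6 and 0 after 6 Gy, 0, 17 and 0 after INDO, and 0, 23 and 15 after both. The median log2 fold changes in those fits kept their sign, at -0.51, -0.98 and -1.06 for 6 Gy, -0.54, -1.10 and -0.79 for INDO, and -0.80, -1.27 and -1.33 for both. Over all genes, the same fits called in either direction 0, 145 and 0 genes for 6 Gy on days 1, 3 and 7, 2, 693 and 1665 for INDO, and 3, 3359 and 2545 for both. On day 7 after INDO, 7.61% of the 21875 genes tested were thus still called while 0 members were, and after both 11.6% were. The part of host tissue in the lower levels was not tested further. Leaving out the 11 tumors with high receptor counts took the combination on day 3 from 25 to 0 members, with 1 treated tumor left and a median log2 fold change of the members of -1.02 against -1.24 with all tumors.

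The mean over the 5 days rests on all 94 tumors. It was lower for 29 of 34 members after 6 Gy, 33 after INDO and 32 after both, beside 10.6%, 17.4% and 23.2% of all genes, and higher for 0. With the tissue scores as covariates 24, 29 and 31 members were lower, beside 3.32%, 24.6% and 42.8% of all genes called in either direction in those fits. The medians of the 34 were -0.86, -0.79 and -0.92 on the log2 scale, against 0.0266, 0.0733 and 0.189 for all genes.

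Among the junction and surface genes, the smallest p for 6 Gy over days belonged to Ptprb (GRCm38 chr10:116275523-116389535, plus strand), the endothelial tyrosine phosphatase VE-PTP that acts on VE-cadherin and TIE2. On day 7, Ptprb stood at 52.7, 71.4, 54.5, 45.3 and 51.5 CPM in controls and at 18.8, 17.0, 23.4, 12.5 and 11.9 after 6 Gy. It stood at 26.5, 22.2, 15.4, 31.6 and 23.9 CPM after INDO and at 10.6, 13.9, 15.2, 14.4 and 8.06 after both. No treated tumor reached the lowest control. The log2 fold changes of Ptprb were -1.72 ± 0.21 (SE, adjusted p = 5.1e-05) for 6 Gy, -1.14 ± 0.21 (0.00174) for INDO and -2.07 ± 0.21 (7.44e-06) for both.

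Tie1 (chr4:118471191-118490061, minus strand), an orphan receptor that pairs with TIE2, stood at 32.1, 39.6, 24.3, 17.3 and 24.6 CPM in the controls of day 7 and at 6.83, 6.57, 12.2, 6.00 and 5.12 after 6 Gy. After INDO it stood at 10.6, 8.35, 6.52, 14.5 and 10.6 CPM, and after both at 4.96, 8.24, 4.70, 6.63 and 2.66. The controls lay above all treated tumors, the treated groups overlapped each other, and the third 6 Gy tumor was the highest of its group. Tie1 fell by 1.91 ± 0.30 (SE) on the log2 scale after 6 Gy (adjusted p = 0.000269), by 1.39 ± 0.29 after INDO (0.00394) and by 2.27 ± 0.30 after both (4.19e-05).

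Pecam1 (chr11:106654217-106750628, minus strand), the adhesion molecule CD31 of endothelium, platelets and leukocytes, stood at 120.4, 124, 104, 75.3 and 113 CPM in the controls of day 7. It stood at 49.4, 39.4, 56.4, 34.1 and 33.8 CPM after 6 Gy, at 41.9, 34.5, 43.8, 56.4 and 45.6 after INDO, and at 36.1, 53.0, 28.3, 39.6 and 24.8 after both. All 15 treated tumors were below the 5 controls, and 73 of 74 treated tumors of any day were below the lowest control of days 1 to 7. The untreated controls of days 15 and 23 were below that level too, at 37.1 to 42.6 and 38.5 to 69.9 CPM. The 4 leukocyte markers (Ptprc, Itgam, Csf1r and Cd3e) summed to a median of 509.8 CPM (358 to 758) in controls of days 1 to 7 and of 279.8 (210 to 766) in treated tumors of those days, and their part in Pecam1 and in S1pr1, which leukocytes also express, was not tested. As a mean over days, Pecam1 was 0.595 of control after 6 Gy, 0.598 after INDO and 0.523 after both.

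Over the 14 junction and surface genes, 13 were lower after 6 Gy as a mean over days, and 14 after INDO and after both (medians -0.84, -0.80 and -0.95). Over days, on the log2 scale after 6 Gy, INDO and both, Cdh5, VE-cadherin of the junctions, fell by 0.88, 0.88 and 0.98, and Clec14a, a C-type lectin of the vessel surface, by 1.11, 1.08 and 1.32. In the same order, Robo4, an endothelial guidance receptor, fell by 0.78, 0.79 and 0.89, and Esam, a junction adhesion molecule, by 0.91, 0.96 and 1.26. Ecscr, a surface regulator of endothelial chemotaxis, fell by 0.66, 0.65 and 0.65, and Icam2, a ligand of leukocyte integrins, by 0.91, 0.80 and 1.13. Each of these passed the test after every treatment. S1pr1, the sphingosine-1-phosphate receptor of endothelium and lymphocytes, fell by 0.81, 0.70 and 0.90, and Emcn, a sialomucin, by 0.55, 0.66 and 0.67. Cldn5, the claudin of tight junctions, fell by 0.65, 0.73 and 0.87, and Myct1 by 0.90, 0.96 and 0.97. S1pr1 ranged from 4.15 to 61.5 CPM (median 10.4) in treated tumors of days 1 to 7, against 18.45 to 41.1 (25.3) in controls of those days. The highest treated tumor was thus above all of these controls, and what sets it apart was not tested. The member that missed the threshold after 6 Gy was Eng, with a log2 fold change of -0.21 ± 0.08 (adjusted p = 0.0698). Eng ranged from 55.6 to 115 CPM in controls of days 1 to 7 and from 39.0 to 81.5 in the treated tumors of those days, so that the groups overlapped, and only 20 of 74 treated tumors of any day were below the lowest of these controls. Within days 1 to 7 Eng was called in 1 of 9 comparisons (6 Gy, day 1), and Cldn5 in 3 of 9. Reads of Eng may be shared with Fpgs, which overlaps it on the opposite strand, because no source states whether the counting used strand.

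**Figure D2:**
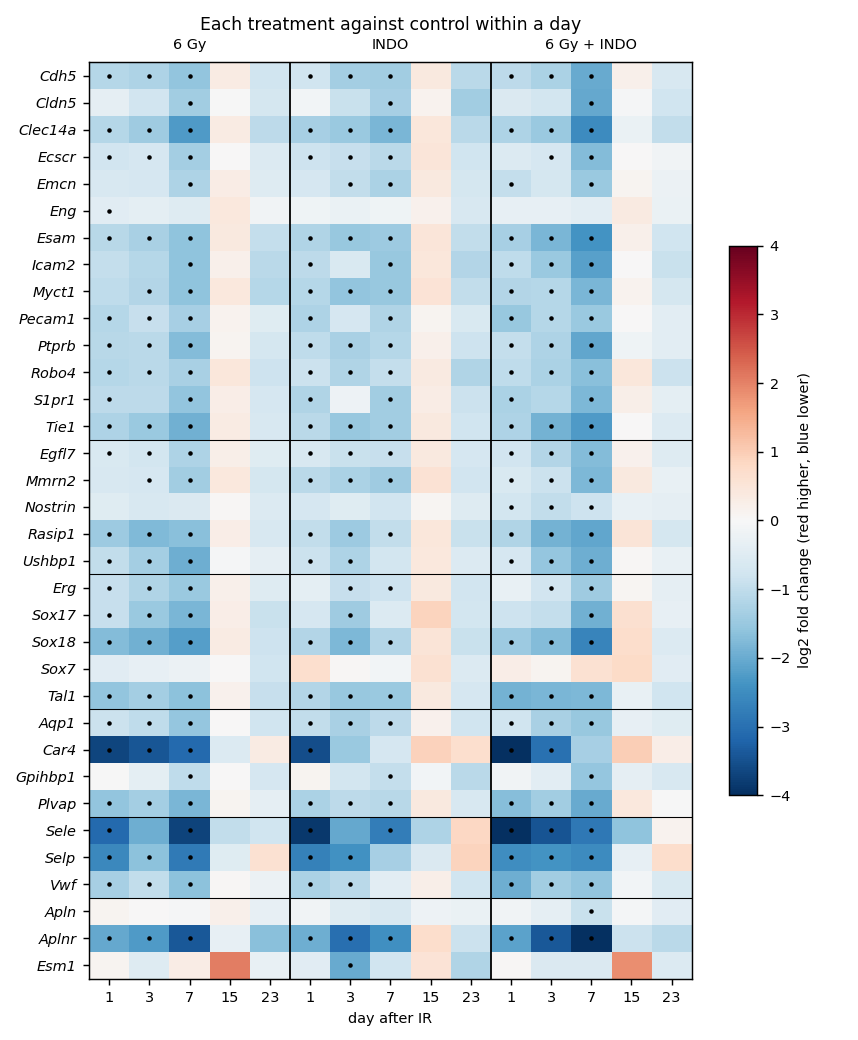
Log2 fold change against control of each of the 34 genes (rows, grouped by role) for each treatment and day (columns); color gives the fold change and a black dot marks an adjusted p under 0.05. Dots fill most of the cells of days 1, 3 and 7, with counts from 23 to 30 of 34 per column, and there are 0 on days 15 and 23.

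The 5 genes of the vessel matrix and the inner side of the cell were all lower over days after each treatment (medians -0.59, -0.60 and -0.83). Rasip1, a RAS-binding protein needed for vessel lumens, had the smallest p of this group for 6 Gy over days. In the controls of day 7 Rasip1 stood at 7.84, 11.6, 7.05, 4.63 and 6.96 CPM, and after 6 Gy at 2.15, 2.66, 3.89, 2.06 and 1.25. It stood at 4.37, 4.30, 2.41, 4.48 and 3.00 CPM after INDO and at 1.69, 1.82, 1.45, 2.04 and 1.49 after both. The highest INDO tumor was just below the lowest control, and the tumors of the other groups lay further down. Rasip1 fell by 1.67 ± 0.27 on the log2 scale after 6 Gy (adjusted p = 0.000432), by 0.97 ± 0.27 after INDO (0.0164) and by 2.08 ± 0.28 after both (4.75e-05). Mmrn2, a matrix glycoprotein of vessels, fell by 0.59 ± 0.11 over days after 6 Gy, Egfl7, a secreted endothelial protein, by 0.56 ± 0.11, and Nostrin, which guides the traffic of endothelial nitric oxide synthase, by 0.44 ± 0.10. Ushbp1 fell by 0.93, 0.60 and 0.90 after 6 Gy, INDO and both. Egfl7 and Rasip1 share bases with other annotated genes (Agpat2 and Gm20532, and Izumo1), and their reads may be shared.

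Of the 5 transcription factors, 4 were lower over days after each treatment, and Sox7 was not. Tal1, a factor of endothelial and blood cell precursors, stood at 3.31, 3.17, 3.18, 1.89 and 3.01 CPM in the controls of day 7, at 0.731, 0.731, 1.01, 0.837 and 1.38 after 6 Gy, at 0.869, 1.09, 0.519, 1.52 and 1.00 after INDO, and at 1.42, 0.547, 0.724, 0.414 and 0.818 after both. The treated groups overlapped each other and lay below the controls, and all 74 treated tumors of any day were below the lowest control of days 1 to 7. The untreated controls of day 15 were below that level too, at 0.594 to 1.11 CPM, and those of day 23 ranged from 1.00 to 1.91. Over days, Tal1 fell by 1.06 ± 0.13 on the log2 scale after 6 Gy (adjusted p = 3.24e-09), by 0.91 ± 0.13 after INDO (3.08e-07) and by 1.35 ± 0.14 after both (2.63e-12). Mast cells and megakaryocytes also use Tal1, and 4 mast cell markers summed to between 3.88 and 41.3 CPM (median 16.5) in controls of days 1 to 7 against 1.40 to 35.5 (4.66) in treated tumors of those days, where the medians of Tal1 were 3.02 and 0.888 CPM; their part in Tal1 was not tested.

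Sox18, a SOX F factor of forming vessels, stood at 5.46, 8.29, 5.56, 3.92 and 5.56 CPM in the controls of day 7 and at 1.12, 1.05, 2.45, 0.910 and 0.751 after 6 Gy. It stood at 2.67, 2.46, 1.62, 3.12 and 2.31 CPM after INDO and at 1.00, 0.912, 0.769, 1.06 and 0.555 after both. The controls lay above all treated tumors, the 6 Gy group overlapped both other treated groups, and the combination held the narrowest range. Sox18 fell by 2.19 ± 0.29 (adjusted p = 9.29e-05), 1.17 ± 0.29 (0.00857) and 2.65 ± 0.30 (1.37e-05) after 6 Gy, INDO and both. Over days after 6 Gy, Erg fell by 0.78 ± 0.13 and Sox17 by 0.97 ± 0.17.

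Sox7 (chr14:63943673-63950732, plus strand), of the same SOX F group, took another course. On day 1 it stood at 5.12, 5.68, 6.57 and 6.06 CPM in controls, at 4.86, 5.89, 3.26, 4.31 and 3.11 after 6 Gy, at 11.6, 6.21, 11.4, 9.31 and 6.91 after INDO, and at 8.15, 8.15, 5.20, 8.72 and 4.75 after both. Of the 5 INDO tumors, 4 were above the highest control. The day 1 difference for INDO was 0.67 ± 0.24 on the log2 scale with adjusted p = 0.0662, and it passed the threshold with DESeq2. Over days the log2 fold change of Sox7 was -0.36 ± 0.16 after 6 Gy (adjusted p = 0.118), 0.11 ± 0.17 after INDO (0.696) and 0.23 ± 0.17 after both (0.25). Treated tumors of days 1 to 7 ranged from 1.26 to 11.6 CPM around the range of the controls, 1.87 to 6.57.

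**Figure D3:**
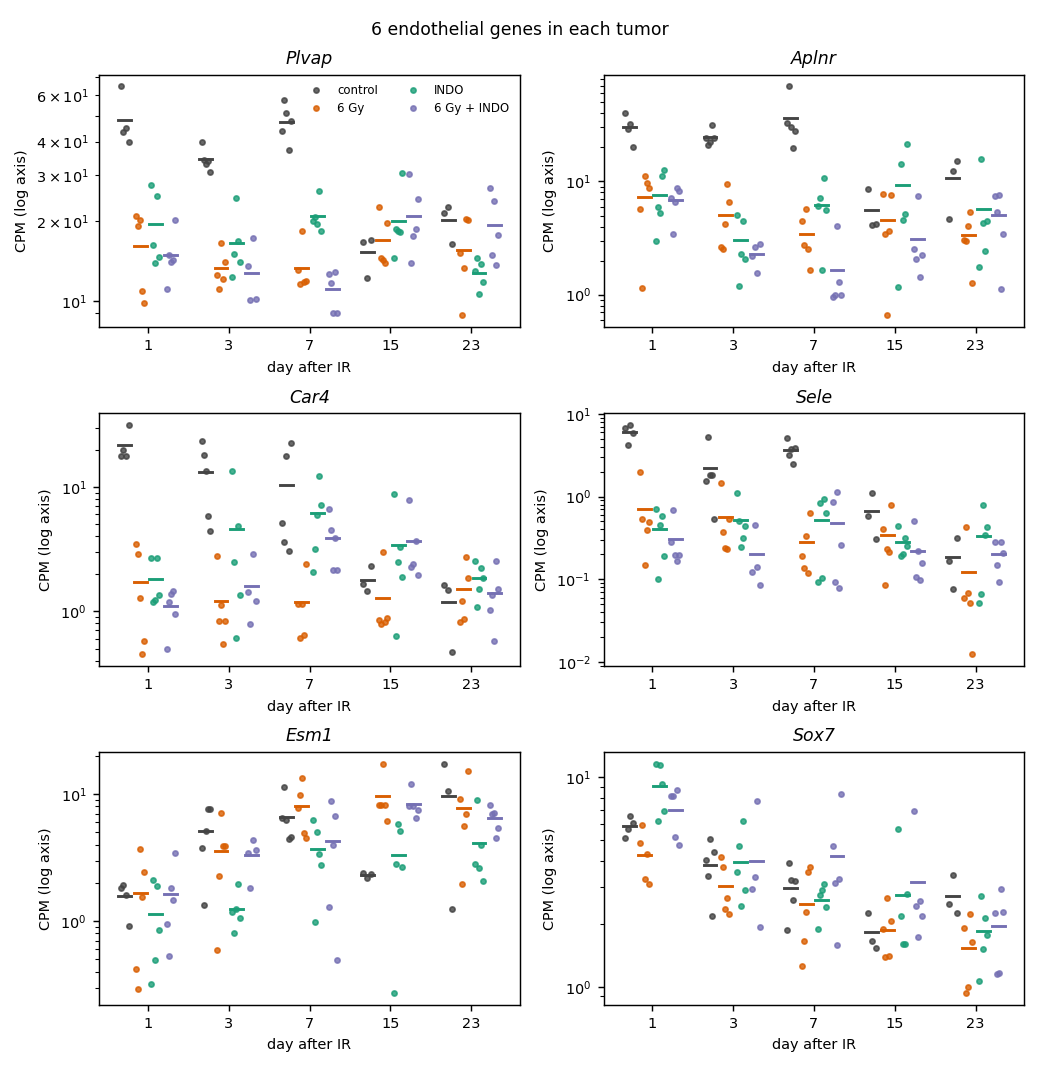
CPM (log axis) of Plvap, Aplnr, Car4, Sele, Esm1 and Sox7 in each tumor by day and treatment (points are tumors, bars are group means). Plvap and Aplnr separate controls from treated tumors on days 1 to 7, Car4 and Sele of controls decline toward day 23, and Esm1 and Sox7 overlap between groups on days 1 to 7. Esm1 was called lower after INDO on day 3.

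Plvap (chr8:71497765-71511752, minus strand), the diaphragm protein of fenestrated capillaries, had the smallest p of all 34 genes for 6 Gy over days. On day 7 it stood at 43.8, 57.6, 51.5, 37.3 and 47.8 CPM in controls, at 13.1, 11.6, 18.3, 11.8 and 11.9 after 6 Gy, at 20.01, 20.7, 19.5, 26.1 and 18.4 after INDO, and at 12.7, 11.7, 9.05, 12.9 and 9.02 after both. The INDO tumors, from 18.4 to 26.1 CPM, lay above the 6 Gy tumors and below the controls, and all 74 treated tumors of any day were below the lowest control of days 1 to 7. The untreated controls of days 15 and 23 were below that level too, at 12.2 to 17.1 and 16.5 to 22.6 CPM. Plvap fell by 1.83 ± 0.15 on the log2 scale after 6 Gy (adjusted p = 1.84e-06), by 1.12 ± 0.15 after INDO (0.000348) and by 2.02 ± 0.15 after both (4.17e-07). Gtpbp3 overlaps Plvap on the opposite strand.

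Car4 (chr11:84957786-84966044, plus strand), the membrane carbonic anhydrase of capillaries, was high in early controls and uneven later. On day 1 Car4 stood at 17.9, 20, 17.9 and 31.6 CPM in controls, at 3.46, 2.86, 1.28, 0.451 and 0.581 after 6 Gy, at 2.69, 1.18, 1.24, 2.66 and 1.34 after INDO, and at 0.495, 1.20, 1.38, 1.46 and 0.958 after both. Every treated tumor was far below the lowest control. The log2 fold changes were -3.67 ± 0.51 (adjusted p = 9.51e-05), -3.55 ± 0.51 (0.00013) and -4.31 ± 0.53 (1.77e-05). By day 7 controls held 5.12, 3.57, 17.8, 3.06 and 22.4 CPM, 6 Gy tumors 1.13, 0.607, 1.15, 0.646 and 2.42, and INDO tumors 2.08, 3.19, 5.96, 12.2 and 7.18. Only 6 Gy passed the threshold on day 7 (-3.11 ± 0.61, adjusted p = 0.00185); for INDO the value was -0.69 ± 0.57 (0.381) and for both -1.33 ± 0.58 (0.0639), and the differences between treatments were not tested on that day.

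Gpihbp1, which carries lipoprotein lipase across capillaries, was called in 3 of 9 comparisons of days 1 to 7. Over days it changed by -0.41 ± 0.16 after 6 Gy (adjusted p = 0.0586) and fell by 0.58 ± 0.16 after INDO and by 0.65 ± 0.16 after both. Aqp1 fell by 0.83 ± 0.12, 0.82 ± 0.12 and 0.90 ± 0.12. Red cell precursors also hold Aqp1, and 7 erythroid markers summed to between 23.96 and 223 CPM (median 88.0) in controls and between 7.77 and 289 (25.9) in treated tumors of days 1 to 7; their part was not tested.

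All 3 activation and venous genes were lower over days after each treatment (medians -1.39, -1.25 and -1.44). Sele encodes E-selectin, which cytokine-stimulated endothelium displays. On day 1 Sele stood at 6.78, 4.22, 7.37 and 5.90 CPM in controls, at 1.96, 0.534, 0.15, 0.391 and 0.486 after 6 Gy, at 0.713, 0.1001, 0.449, 0.577 and 0.189 after INDO, and at 0.285, 0.681, 0.197, 0.166 and 0.196 after both. Every treated tumor was below the lowest control, and the first 6 Gy tumor stood apart from its group. The log2 fold changes were -3.11 ± 0.61 (adjusted p = 0.00184), -3.86 ± 0.63 (0.00044) and -4.28 ± 0.64 (0.000113). These are low counts, and on days 3, 15 and 23 groups of treated tumors overlapped the controls, apart from 6 Gy + INDO on day 3.

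Selp encodes P-selectin, which endothelium and platelets store for rapid display. On day 1 Selp stood at 12.1, 6.85, 8.74 and 9.46 CPM in controls, at 2.85, 1.19, 1.36, 1.22 and 1.09 after 6 Gy, at 1.11, 0.901, 0.942, 2.54 and 1.46 after INDO, and at 1.29, 1.98, 1.90, 1.66 and 1.44 after both. Every treated tumor was below the lowest control, and the first 6 Gy tumor was the highest of its group. Selp fell by 2.58 ± 0.32 (adjusted p = 2.98e-05), 2.69 ± 0.32 (2.13e-05) and 2.48 ± 0.32 (2.68e-05) on the log2 scale. Platelet markers, 6 genes led by Pf4, summed to between 21.3 and 79.4 CPM (median 51.4) in controls of days 1 to 7 and to between 8.90 and 42.5 (20.7) in treated tumors of those days; their part in Selp and Vwf was not tested.

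Vwf, the clotting factor that endothelium stores with P-selectin, stood at 11.6, 24.3, 24.3, 25.3 and 14.97 CPM in the controls of day 7 and at 5.38, 5.32, 8.197, 6.06 and 7.35 after 6 Gy. It stood at 12.9, 18.8, 9.86, 17.7 and 11.9 CPM after INDO and at 6.65, 6.81, 5.47, 7.56 and 5.17 after both. INDO tumors overlapped the controls, and both irradiated groups lay below them. The log2 fold changes were -1.63 ± 0.22 after 6 Gy (adjusted p = 0.000105), -0.42 ± 0.22 after INDO (0.154) and -1.57 ± 0.22 after both (6.86e-05).

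The 3 angiogenic genes diverged. Aplnr (chr2:85136225-85139923, plus strand), the apelin receptor of growing vessels, fell furthest of all members on day 7 after both treatments, and furthest but for Sele after each alone. On day 7 it stood at 32.9, 69.8, 30.0, 19.6 and 27.8 CPM in controls, at 4.44, 2.75, 5.70, 2.51 and 1.65 after 6 Gy, at 6.02, 7.18, 1.66, 10.6 and 5.63 after INDO, and at 0.954, 1.00, 4.03, 1.29 and 0.993 after both. The second control was far above the other 4, and every treated tumor was below the lowest control. Aplnr fell by 3.40 ± 0.51 (adjusted p = 0.000212), 2.46 ± 0.49 (0.00291) and 4.40 ± 0.55 (2.72e-05) on the log2 scale.

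Apln, the ligand of that receptor, which endothelial tip cells and hypoxic tumor cells make, was not called against control after 6 Gy on the library scale. On day 7 Apln stood at 51.0, 87.2, 79.7, 81.6 and 89.2 CPM in controls, at 84.4, 70.7, 93.0, 72.2 and 51.1 after 6 Gy, at 52.6, 35.1, 53.4, 49.1 and 45.4 after INDO, and at 24.02, 66.0, 39.99, 54.5 and 14.5 after both. The groups overlapped, and 4 of 74 treated tumors of any day were below the lowest control of days 1 to 7. Within days 1 to 7 Apln was called lower in 1 of 9 comparisons (both treatments, day 7). Over days the log2 fold change of Apln was -0.01 ± 0.11 after 6 Gy (adjusted p = 1.0), and it fell by 0.38 ± 0.11 after INDO (0.00642) and by 0.41 ± 0.11 after both (0.00187).

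Esm1 (chr13:113209659-113218098, plus strand), a secreted proteoglycan of tip cells, was higher than control in all irradiated tumors of day 15 but did not pass edgeR's test there. On day 15 it stood at 2.38, 2.18 and 2.34 CPM in controls, at 8.27, 8.21, 17.4, 8.27 and 6.12 after 6 Gy, at 0.271, 2.81, 5.86, 5.13 and 2.65 after INDO, and at 8.01, 12.1, 8.07, 6.51 and 7.46 after both. Both irradiated groups lay above the 3 controls, and INDO overlapped them. The log2 fold changes were 2.04 ± 0.59 after 6 Gy (adjusted p = 0.555 with edgeR and 0.035 with DESeq2) and 1.85 ± 0.58 after both (0.0979 with edgeR and 0.013 with DESeq2). Over days Esm1 changed by 0.33 ± 0.28 after 6 Gy (0.478), fell by 0.81 ± 0.28 after INDO (0.0186) and changed by 0.02 ± 0.28 after both (1.0). Within days 1 to 7 Esm1 was called lower in 1 of 9 comparisons (INDO, day 3). Gzmk overlaps Esm1 on the opposite strand.

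On days 15 and 23 no member passed the test in any treatment. With edgeR 0 of 34 were called after 6 Gy, INDO or both on day 15, beside 0%, 0% and 1.33% of all genes in either direction, and 0 of 34 on day 23, beside 0%, 0% and 0.00473%. At an unadjusted p under 0.05, day 15 gave 2 higher members after 6 Gy, 1 higher after INDO, and 1 lower and 2 higher after both, and day 23 gave 17, 22 and 6 lower members. The share of all genes at that unadjusted p was not computed, and the shares above, at adjusted p, are no yardstick for these counts. DESeq2 called Esm1 higher after 6 Gy and after both on day 15, and Cldn5 lower after INDO on day 23. Without the second INDO tumor of day 23, edgeR called 2 members lower after INDO. The median log2 fold changes were 0.20, 0.38 and 0.07 on day 15 and -0.67, -0.79 and -0.48 on day 23. Each of these days has 3 controls.

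The controls themselves differed between day 7 and day 15. In untreated tumors 28 of 34 members were lower on day 15 than on day 7, beside 5.08% of all genes, with a median log2 difference of -1.52 and a range from -2.68 (Aplnr) to -0.31 (Gpihbp1). This contrast was added after the levels of the controls were seen. The pan-endothelial level of controls went from 18.2 to 35.1 CPM on day 7 to 9.75, 7.93 and 8.49 on day 15, and stood at 16.7, 19.1 and 12.3 on day 23. After 6 Gy 0 of 34 members differed between days 15 and 7 (beside 0.544% of all genes in either direction, 5 higher at an unadjusted p under 0.05), and after INDO 0 of 34 (beside 0.0612%, 2 lower and 1 higher at that p). Both shares are at adjusted p, and the share of all genes at the unadjusted p was not computed. After both, 9 were higher on day 15 (Cdh5, Cldn5, Egfl7, Esam, Plvap, Rasip1, Robo4, Sox18 and Tie1), beside 12% of all genes in either direction. DESeq2 gave 0 for 6 Gy and for INDO and 5 for both. The count of 9 rests on single tumors, since it was 0 without the third or the fifth 6 Gy + INDO tumor of day 15, or the third of day 7, between 2 and 5 without the first, the second or the fourth of day 15 or the first or the fifth of day 7, and 0 without the tumors with high receptor counts.

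**Figure D4:**
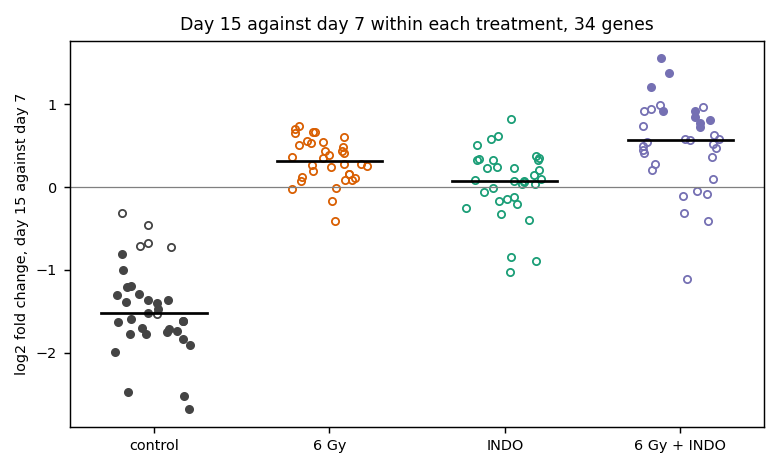
Log2 fold change between day 15 and day 7 within each treatment for the 34 genes (points are genes, filled where the adjusted p is under 0.05, and bars are medians). Controls lie between -2.68 and -0.31 with 28 filled points, 6 Gy and INDO have 0, and 6 Gy + INDO has 9 above the line.

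Plvap shows both courses. Its CPM was 16.8, 12.2 and 17.1 in the controls of day 15, 22.7, 14.5, 14.3, 13.97 and 19.8 after 6 Gy, 14.5, 18.7, 18.4, 18.3 and 30.6 after INDO, and 30.3, 13.9, 17.6, 18.7 and 24.4 after both. All 3 treated groups overlapped the controls. Between day 7 and day 15 Plvap fell by 1.63 ± 0.26 on the log2 scale in controls (adjusted p = 3.71e-05), changed by 0.35 ± 0.21 after 6 Gy (0.432) and by -0.06 ± 0.21 after INDO (0.934), and rose by 0.92 ± 0.22 after both (0.0198). The call after both rests on single tumors. It was lost without the third or the fifth 6 Gy + INDO tumor of day 15, the third of day 7, or the tumors with high receptor counts.

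The change of the treatment effect between the days was tested as such. From day 7 to day 15 the difference from control moved upward for 25 of 34 members after 6 Gy, 13 after INDO and 29 after both, beside 1.82%, 0.466% and 4.78% of all genes, with median shifts of 1.84, 1.54 and 2.11 on the log2 scale. These 3 contrasts share their control tumors. The INDO count rests on single tumors, since it was 0 without the second control of day 15, 1 without the third, without the fifth INDO tumor of day 15, the second or the third INDO tumor of day 7 or the second control of day 7, and 5 without the first control or the second INDO tumor of day 15. It was also 0 with housekeeping scaling and 1 with the tissue scores. For both, the count was 17 without the tumors with high receptor counts. From day 7 to day 23, 2 members moved upward after 6 Gy (Plvap and Selp), 0 after INDO and 10 after both (Aplnr, Ecscr, Egfl7, Esam, Mmrn2, Plvap, Ptprb, Selp, Sox18 and Tie1), beside 0.422%, 0.0374% and 1.17% of all genes in either direction. For INDO 3 members moved upward at an unadjusted p under 0.05, where the share of all genes was not computed, and DESeq2 called 0. These counts rest on single tumors too. For 6 Gy the count was 0 without the first control of day 23 or the second 6 Gy tumor of day 7, and for both it was 1 without the first control of day 23 and 2 without the third. A test that the effects of all 5 days are equal was passed by 17 members for 6 Gy, 14 for INDO and 28 for both, beside 3.8%, 2.66% and 33.6% of all genes.

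Untreated tumors also changed between the first and the last harvest. In controls, 8 members were lower on day 23 than on day 1 and 3 were higher, beside 21.6% of all genes in either direction. Sele fell by 5.01 ± 0.95 on the log2 scale (adjusted p = 3.53e-05), from between 4.22 and 7.37 CPM to 0.167, 0.0756 and 0.317. Car4 fell by 4.20 ± 0.83 (7.31e-05) to 1.62, 1.47 and 0.468 CPM, and Selp by 3.00 ± 0.63 (0.000178) to 1.00, 0.541 and 1.94 CPM. These late controls overlapped the treated tumors of day 23 in all 3 genes. Plvap, Sox7, Aqp1, Tal1 and Pecam1 were the other 5 that fell, by 0.68 to 1.26. Esm1 (2.62 ± 0.71), Gpihbp1 (1.39 ± 0.40) and Apln (0.81 ± 0.28) rose. With the tissue scores as covariates 1 member was lower and 0 higher, beside 4.54% of all genes in either direction. Without the first control of day 23 the counts were 5 and 0. Without the second control of day 23 or the first of day 1, 5 were lower.

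The combination was also set against each of its parts. Against 6 Gy alone, as a mean over days, 5 members were lower (Apln, Egfl7, Esam, Nostrin and Vwf, by 0.24 to 0.39 on the log2 scale) and Sox7 was higher (0.59 ± 0.16, adjusted p = 0.00136), beside 45.8% of all genes in either direction. Against INDO alone, Aplnr (-0.85 ± 0.25, adjusted p = 0.0216), Tal1 (-0.44 ± 0.13, 0.0209) and Vwf (-0.46 ± 0.12, 0.0113) were lower and Esm1 was higher (0.83 ± 0.27, 0.0335), beside 10.7%. The 6 members called in the first comparison are a smaller share than that of all genes, and the 4 in the second are near it. Scaling by 14 housekeeping genes, which moved the median of all genes by 0.24 in the first comparison and 0.11 in the second, gave 0 lower and 7 higher members against 6 Gy, and it put Sox7 above control as a mean over days (0.45). Without the 11 tumors with high receptor counts 0 members were lower in either comparison, and Sox7 was still higher than after 6 Gy (0.76).

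Scaled to the 10 pan-endothelial genes in place of the library, the other 24 members were tested for a change that differs from that of these 10. As a mean over days, 5 of 24 were lower and 7 higher on this scale after 6 Gy, 2 and 4 after INDO, and 4 and 7 after both, beside 68.2%, 74.9% and 81.6% of all genes in either direction, which had a median of 0.833, 0.891 and 1.13 on this log2 scale. Aplnr (-1.18 ± 0.20, -0.86 ± 0.20 and -1.48 ± 0.21 after 6 Gy, INDO and both) and Sele (-1.23 ± 0.36, -0.996 ± 0.36 and -1.53 ± 0.37) were lower on it in all 3. Car4 (-1.18 ± 0.32) and Rasip1 (-0.24 ± 0.09) were lower after 6 Gy, Tal1 (-0.40 ± 0.15) after both, and Sox18 after 6 Gy (-0.47 ± 0.10) and after both (-0.22 ± 0.11). Eng (0.64, 0.62 and 0.70, each ± 0.13), Apln (0.79, 0.48 and 0.51), Sox7 (0.52, 1.02 and 1.23) and Nostrin (0.37, 0.34 and 0.25) were higher on it in all 3. Esm1, Emcn and Gpihbp1 were higher on it after 6 Gy and after both. Icam2, Ptprb, S1pr1, Plvap, Aqp1, Cldn5, Myct1, Selp, Sox17, Ushbp1 and Vwf passed this test in 0 of the 3 comparisons.

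**Figure D5:**
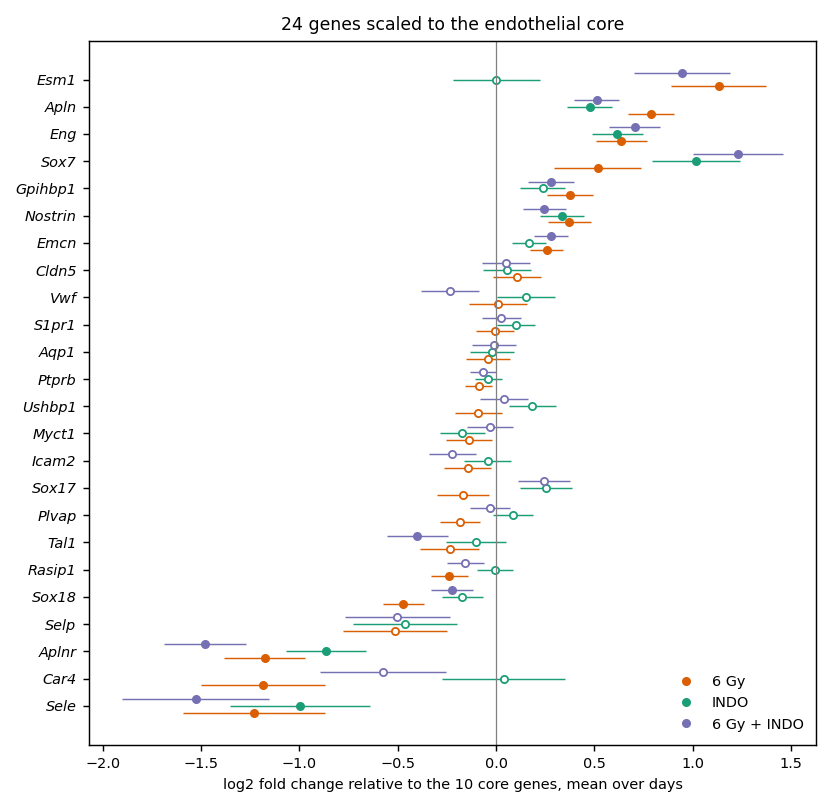
Log2 fold change against control as a mean over days, relative to the 10 pan-endothelial genes, of the other 24 members (rows) for the 3 treatments (points with SE, filled where the adjusted p is under 0.05). Sele, Aplnr and Car4 lie at the low end and Esm1, Apln, Eng and Sox7 at the high end.

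Of 31 further endothelial genes, 23 were lower over days after each treatment, and Podxl was higher after 6 Gy, 0 after INDO and Slco2a1 after both, both named after their values were seen. For this and the other lists below, the share of all genes lower over days was 10.6%, 17.4% and 23.2% after 6 Gy, INDO and both. Those with the smallest p after 6 Gy were Ramp2 (-1.23 ± 0.13), part of the adrenomedullin receptor with Calcrl (-0.99 ± 0.12), Arhgef15 (-0.70 ± 0.09) and Tek (-1.35 ± 0.17), the TIE2 receptor. In controls 21 of the 31 were lower on day 15 than on day 7, beside 5.08% of all genes. Of 10 mural cell genes 8, 6 and 7 were lower over days after 6 Gy, INDO and both, and of 6 lymphatic genes 5, 4 and 5. Of 4 tumor epithelium genes 0, 3 and 3 were lower, with sums of 1498 to 3230 CPM (median 2352) in controls and 1378 to 3062 (2285) in treated tumors of days 1 to 7, and of 4 leukocyte genes 3, 2 and 3.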

How the data were processed

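Total RNA of 94 bulk 4T1 tumors was sequenced from stranded libraries. The authors trimmed reads with cutadapt, processed them in Partek and deposited 1 table of estimated counts per gene (expected counts, not all whole). Per the submitters' processing notes, cutadapt, STAR, Partek 11.0.24.0328 and the mm10 build were used, and no source states whether counting used strand. Counts were rounded to whole numbers. Groups came from the sample labels. Low-count genes were removed with filterByExpr, libraries were scaled by TMM, and edgeR 4.0.16 (R 4.3.3; limma 3.58.1) fitted quasi-likelihood models, 1 per day for the 4 groups of that day and 1 of all 94 tumors with 20 group means for means over days and contrasts between days. P-values were adjusted by the Benjamini-Hochberg method over all genes tested and called under 0.05. Errors of log2 fold changes are standard errors derived from the F statistic. For the comparison relative to the 10 pan-endothelial genes, these set the scaling. Alternatives were DESeq2 1.42.0, RLE and housekeeping scaling, no filter, a replicate block, 1 fit in place of daily fits, leaving out tumors or days, and scores of fat, muscle and skin (log2 of CPM plus 0.5) as covariates. The pipeline was tested on simulated data. Members and lists were chosen with earlier results of these data known. Per-tumor values are given for up to 4 members per role with the smallest p over days for 6 Gy, and for members whose direction differed from the median. Further endothelial genes are named by smallest p. CPM are counts scaled to TMM-adjusted library size. CPM per kilobase uses exon lengths of GENCODE vM21, which also gave the GRCm38 positions. Totals of 21.0 to 109 M counts set the precision.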

Additional observations from a re-analysis of the deposited data

Results flagged for a closer look

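The pan-endothelial level and the members with per-tumor values were scanned in every group of 4 or more tumors, 288 combinations in all. In 32 of these (11.1%) a tumor lay far from the others. The rule flags about 1 in 20 for independent, normally distributed values, but the same tumors recur across genes here, so that share is no fair yardstick. The second INDO tumor of day 23 accounted for 7 of the 32, all as the highest value. It stood at 15.5 CPM for the pan-endothelial level, 66.2 for Pecam1, 15.9 for Tie1, 5.05 for Rasip1, 3.59 for Sox18, 15.8 for Aplnr and 9.02 for Esm1, against 7.26, 32.9, 8.45, 2.42, 1.21, 4.51 and 4.00 in the next highest tumor. The third 6 Gy tumor of day 7 was highest for Tie1 (12.2 CPM), Sox18 (2.45) and Plvap (18.3).

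For the selectins, the high tumors were the second control of day 3 for Sele (5.28 CPM), the first 6 Gy tumor of day 1 for Sele (1.96) and Selp (2.85), the first 6 Gy tumor of day 3 for Sele (1.46) and the second of day 23 (0.428), the second 6 Gy + INDO tumor of day 1 (0.681) and of day 3 (0.456) for Sele, and the first of day 15 for Selp (6.35). For Car4 they were the fourth control of day 1 (31.6 CPM), the first 6 Gy tumor of day 3 (2.76) and the third of day 15 (3.01). For Aplnr they were the second control of day 7 (69.8 CPM) and the third 6 Gy + INDO tumor of day 7 (4.03) and of day 15 (7.39).

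Single high tumors were also found for Plvap (30.6 CPM, INDO day 15), Rasip1 (4.60, 6 Gy day 23), Esm1 (17.4, 6 Gy day 15, and 12.1, 6 Gy + INDO day 15), Sox7 (6.93, 6 Gy + INDO day 15) and Apln (78.8, INDO day 23). Values low for their group were those of Tal1 in the fourth (1.89 CPM) and Apln in the first (50.9) control of day 7.

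Effects differed between days by a test of the difference itself. From day 7 to day 15 the difference from control moved upward for 25 members after 6 Gy, 13 after INDO and 29 after both. From day 7 to day 23 it did so for 2, 0 and 10, and the effects of the 5 days differed for 17, 14 and 28. All these contrasts share the same controls.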

How the results depend on the processing

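Over 68 counts of members lower or higher, 1005 of 1100 alternative values were within 1.5 times the main count and 95 were not, and the cause was not tested unless fewer tumors remained. Many of the 68 main counts were 0, and a 0 that stayed at 0 was taken as within, so the 1005 say little about counts above 0. Among values of single members, 13368 of 14258 kept direction and side of the threshold, 736 lost the call and 150 gained it. Direction was reversed for Sox17 (0.0303) and Aqp1 (0.131) after 6 Gy on day 1 and Erg (0.229) after INDO on day 7 with tissue scores, and for Eng (0.206) in 6 Gy + INDO against 6 Gy with housekeeping scaling. Housekeeping scaling moved the median of all genes by -0.29 to 0.32 and DESeq2, with its own set of genes, by -0.55 to 1.1. With tissue scores, lower members on days 1, 3 and 7 numbered 0, 6 and 0 after 6 Gy, 0 after INDO on days 1 and 7, and 0 and 15 after both on days 1 and 7. Leaving out 1 tumor gave 14 to 25 lower and 0 to 1 higher members for INDO on day 1, and 0 to 2 lower on day 23. DESeq2 gave 1 higher member for INDO on day 1 and for 6 Gy and both on day 15, and 1 lower for INDO on day 23. The fit of all tumors gave 3 lower members after both on day 23, and housekeeping scaling 1 higher after both over days. Without tumors with high receptor counts 0 were lower after both on day 3.

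For 6 Gy + INDO against 6 Gy, lower members were 3 with DESeq2, RLE scaling or without day 1, 0 with housekeeping scaling or without high-receptor tumors, 8 without day 23, 1 without day 3 and 2 without day 7. Higher members were 2 with DESeq2, tissue scores or without day 1, and 7 with housekeeping scaling. Against INDO, lower members were 6 with tissue scores or without day 23, 7 without day 15, and 0 without day 3, day 7 or high-receptor tumors, and higher members were 0 without day 15, 23, 3 or 7 or those tumors. For day 15 against day 7 after both, the higher members were 0 to 11 when 1 tumor was left out, 5 with DESeq2 and 0 without high-receptor tumors. For the shift from day 7 to 15, INDO gave 0 to 18 when 1 tumor was left out, 0 with housekeeping scaling, 8 with no filter and 1 with tissue scores, and both gave 17 without high-receptor tumors. For day 7 to 23, 6 Gy gave 0 to 4 when 1 tumor was left out, 6 with DESeq2 and 1 with tissue scores, and both gave 1 to 15, 16 with DESeq2, 4 with housekeeping scaling, 1 with tissue scores and 2 without high-receptor tumors. In controls, day 23 against day 1 gave 5 to 6 lower and 0 to 3 higher when 1 tumor was left out, and 1 lower and 0 higher with tissue scores. With Pecam1, Cdh5 and Tie1 as the scale, INDO had 7 higher and both had 2 lower.

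With the replicate number as a replicate block, 1 member was higher for INDO on day 1 and 4 for day 15 against day 7 after both, and every other count of members was within 1.5 times. Of 132 same-numbered pairs, 54 had a correlation of deviations over 0.1 (median 0.0584, against -0.00273 for other numbers). On days 1, 3, 7, 15 and 23 the medians were -0.00896, 0.0635, 0.0391, 0.117 and 0.158, against 0.0288, 0.00339, 0.0259, -0.0504 and -0.0389. Of 94 tumors, 29 correlated best with their own number, and whether the numbers mark tumors handled together was not tested. No 2 tumors of a group agreed within counting noise. Days 15 and 23 have 3 controls each, and low counts limit Sele.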
